A study of Homo sapiens with 8 samples.

Results

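HIF subunit genes were examined for HIF-1β binding at their own loci in 4 human cancer cell lines. The members are HIF1A, EPAS1, HIF3A, ARNT and ARNT2, 5 of 20163 protein-coding genes of the GENCODE annotation of GRCh37 (hg19). Every peak that overlapped a gene body or the 100 kb on either side of it was taken, and this gave 20 of the 18645 peaks in 8 peak lists. The genes were chosen by name, as the genes of the HIF subunits, with earlier results of these data known. In each of the PC-3 (prostate cancer), T47D (breast cancer), A549 (lung cancer) and HCT-116 (colorectal cancer) lines, chromatin bound by HIF-1β was immunoprecipitated and sequenced (ChIP-seq) in 2 replicates. All 8 libraries came from cells kept at 0.5% oxygen for 16 h. No library of normoxic cells and no input or control library was part of these lists, so binding could be compared between lines but not between oxygen levels. Each line stands for 1 source of cells, and the labels do not say whether its replicates were separate cultures.

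HIF is a heterodimer of an oxygen-regulated α subunit and a β subunit that is present irrespective of oxygen. HIF1A, EPAS1 and HIF3A encode HIF-1α, HIF-2α and HIF-3α, which prolyl hydroxylation marks for VHL-dependent degradation when oxygen is plentiful. ARNT encodes HIF-1β, the protein that was precipitated here, and ARNT2 encodes its paralogue, which is best known from the nervous system. The dimer recognises the core sequence RCGTG, that is ACGTG or GCGTG, in the hypoxia response elements of its target genes.

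The libraries held between 1042 and 3790 peaks, and the lists hold no reads, so the depth is unknown. Each peak has a MACS score, the lowest of which was close to 50 in every library. Scores cannot be set side by side across libraries, so the rank of a peak in its own library is given, together with a percentile, which is 100 minus the percentage of the peaks of that library with a higher score. A line was said to have a site where a peak of each replicate shared 1 bp or more with one of the other, and the peaks of all libraries that overlapped were merged into 1 region.

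Peaks lay in the windows of 4 of the 5 genes and formed 5 regions, of which 4 were sites in at least 1 line. The stretches below show where RCGTG lies in the HIF1A region, which had the highest scores, and in the EPAS1 upstream region, the nearest to the start of that gene. They are read 5′ to 3′ from the + strand of GRCh37, at chr14:62217872-62218171 for HIF1A and chr2:46460118-46460267 for EPAS1. Capitals mark the copies of RCGTG on either strand, so that CACGT and CACGC are copies on the − strand. No copies overlapped each other.
HIF1A downstream region: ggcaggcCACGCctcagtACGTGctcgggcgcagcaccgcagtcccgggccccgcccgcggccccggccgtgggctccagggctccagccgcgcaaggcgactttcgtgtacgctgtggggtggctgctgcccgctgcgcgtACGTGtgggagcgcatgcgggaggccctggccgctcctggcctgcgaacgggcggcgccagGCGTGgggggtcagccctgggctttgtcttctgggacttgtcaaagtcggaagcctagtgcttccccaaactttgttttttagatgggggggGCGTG
EPAS1 upstream region: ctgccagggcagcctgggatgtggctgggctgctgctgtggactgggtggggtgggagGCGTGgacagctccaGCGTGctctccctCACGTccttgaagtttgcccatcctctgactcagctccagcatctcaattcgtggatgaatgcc

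HIF1A had a site in all 4 lines, HIF3A in PC-3, A549 and HCT-116 cells, and EPAS1 in T47D and A549 cells. ARNT and ARNT2 had none in any line. By line, 2 of the 5 genes had a site in PC-3 cells, where 15.7% of all protein-coding genes had one within the same distance, and 2 of 5 in T47D cells, against 31.1% of all genes. In A549 cells the count was 3 of 5 against 13.7% of all genes, and in HCT-116 cells it was 2 of 5 against 28.6%. A site in all 4 lines was found for 1 member and for 6.3% of all genes, and no site in any line for 2 members and for 55.2% of all genes. With 5 genes these counts are descriptions of single loci, and no share of the group is read from them.

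No member had a listed peak at its promoter. A site within 2 kb of the start of the gene was found for 0 of the 5 members and for 9.15% of all genes. The peak nearest to the start lay 53.7 kb away for HIF1A, 60.1 kb for EPAS1, 93.0 kb for HIF3A, 176 kb for ARNT2 and 321 kb for ARNT. The genes also have shorter annotated transcripts that start within the gene body, and the nearest of these to a peak were 3.56 kb away in HIF1A and 5.88 kb away in ARNT2. RCGTG itself was present near these starts. It occurred in the 300 bp from 250 bp before to 50 bp after the start of HIF1A (1 copy) and HIF3A (3 copies) but not of EPAS1, ARNT or ARNT2, where 53.4% of all promoters of that length held at least 1 copy. Within 2 kb on either side of the start, every member held between 4 and 12 copies, the median of all genes being 8.

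**Figure D1:**
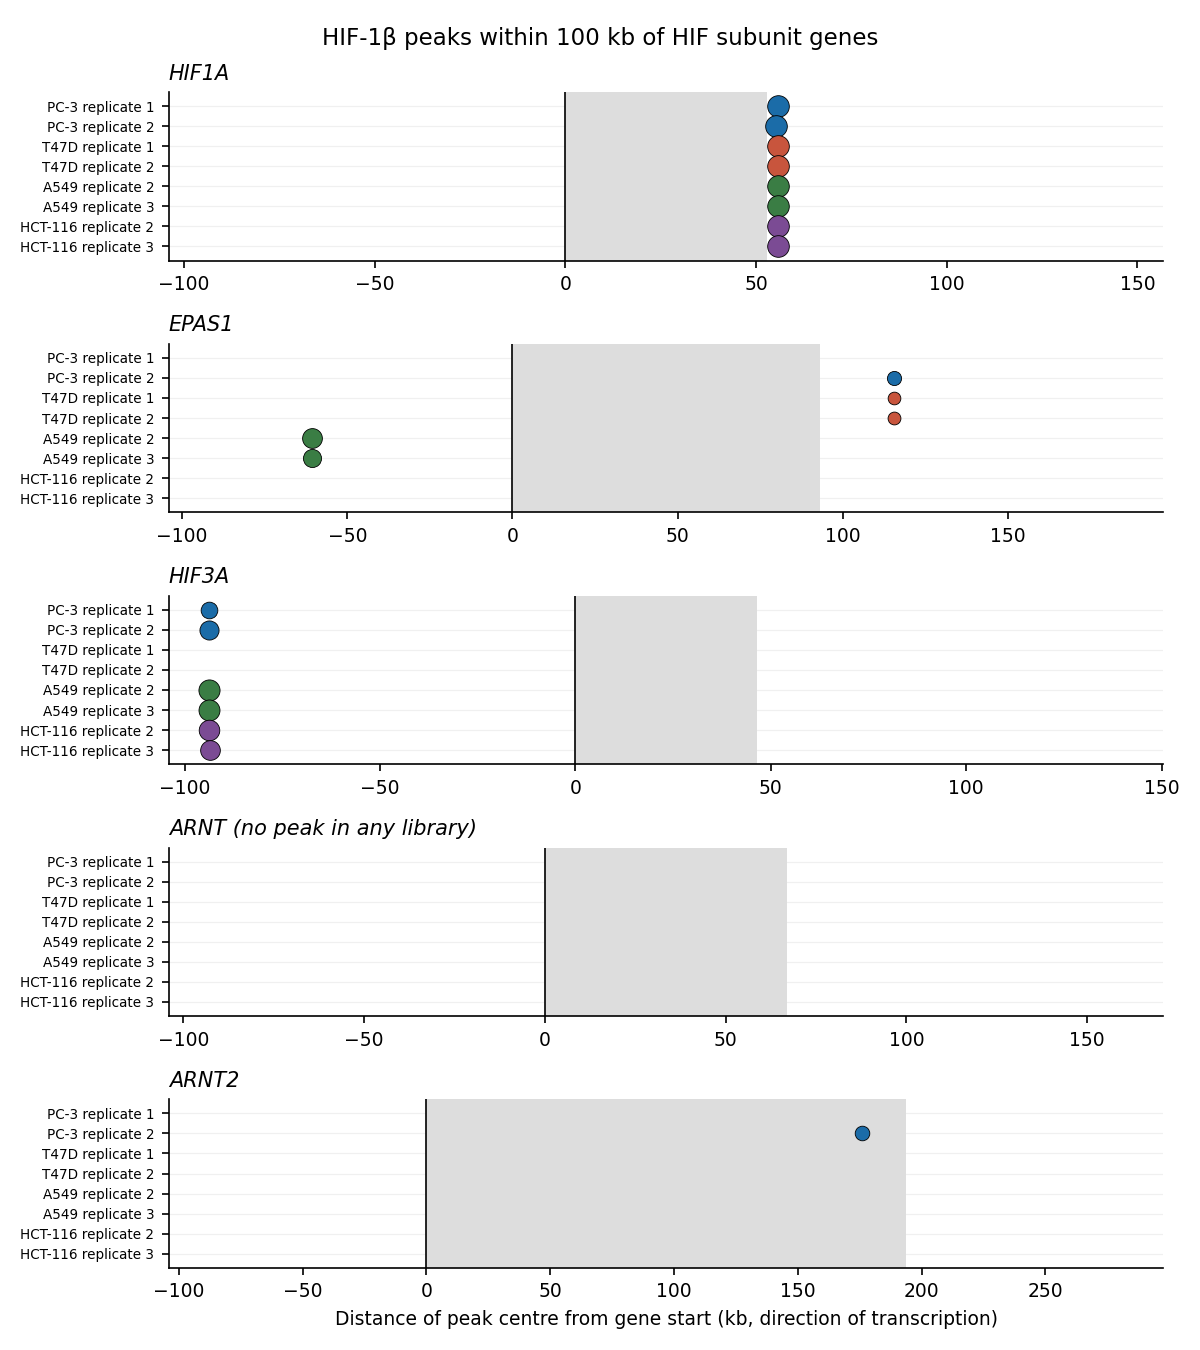
HIF-1β peaks within 100 kb of each HIF subunit gene. The x axis gives the distance of the centre of the peak from the start of the gene in kb, counted in the direction of transcription, grey is the gene body, rows are libraries and larger points have higher percentiles. All 8 libraries have a peak just past the end of HIF1A, ARNT has none, and no point lies at a gene start.

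HIF1A, the α subunit found in almost all cell types, had the highest ranks. Its only region lay past the 3′ end of the gene, at chr14:62215885-62218946, 908 bp beyond the gene and 53654 bp from its start. All 8 libraries had a peak there, with centres between 55.2 and 55.8 kb from the start. The peak ranked 3 of 1042 (score 1960) in PC-3 replicate 1 and 5 of 2891 (3059) in PC-3 replicate 2. In T47D cells it had the score 3100 in both replicates, rank 1 of 3061 in replicate 1 and 2 of 2910 in replicate 2, and shared that score with other peaks. In A549 cells it ranked 8 of 1768 (2248) in replicate 2 and 10 of 1270 (1431) in replicate 3, the lowest of its ranks. In HCT-116 cells it ranked 1 of 3790 (3100, the score of 13 peaks) in replicate 2 and 4 of 1913 (2847) in replicate 3.

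Peaks of equal score were given the same, best rank, so in HCT-116 replicate 2 the order among the 13 peaks at 3100 is not known. At most 9 peaks scored higher than the HIF1A peak in any library, which held for 2 of the 8362 merged regions, the other being at the start of GPI, the glycolytic enzyme glucose-6-phosphate isomerase. By mean percentile it was 3 in order of 8362 at 99.80, after the regions at the starts of GPI (99.98) and of ENO1, the glycolytic enzyme enolase (99.83). Over the 8 libraries its percentiles were most like those of ENO1, GPI and NARF, with mean differences of 0.153, 0.183 and 0.235 percentile points. These are descriptions with no test. The difference between lines was small: percentiles of replicates of a line differed by 0.139 points on average, against a median of 0.293 over all ways to pair the 8 libraries. No difference between lines beyond replicates was detected by an exact permutation test over all 105 pairings (one-sided, p = 0.0857, adjusted p = 0.129 over the 3 members tested, smallest possible p = 0.0095). Ranks 1 and 10 are both at the upper end of a list, so the percentile leaves little room for lines to differ at this region.

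Centres of replicate peaks lay 95 to 142.5 bp apart in T47D, A549 and HCT-116 cells, and 571 bp apart in PC-3 cells. Peaks shared 1542 bp in PC-3, 1236 bp in T47D, 1108 bp in A549 and 1064 bp in HCT-116 cells. PC-3 replicate 2 stood out with a peak of 3062 bp, a width that 1.35% of its peaks exceeded, while the other 7 were between 1064 and 1542 bp. The stretch common to all libraries, chr14:62217497-62218560, was the whole peak of HCT-116 replicate 3. It held 6 of the 8 copies of RCGTG in the region, and 1 copy lay 12.5 bp before its centre. Within the site of each line alone there were 8 copies in PC-3, 7 in T47D, 6 in A549 and 7 in HCT-116 cells. At least as many were held by 20.3% of the sites of PC-3, 36.2% of T47D, 26.1% of A549 and 40.9% of HCT-116 cells.

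Annotation places this region between genes of the coding set. HIF1A is not the coding gene with the nearest start: that is SNAPC1, a subunit of the complex that activates transcription of small nuclear RNA genes, at 10192 bp. SYT16 starts 59746 bp away. The region covers the starts of all 11 transcripts of HIF1A-AS3, a long non-coding RNA (lncRNA) annotated on the − strand, and 279 bp of its exons. The peak lists do not say which of these genes, if any, responds to the binding. Beyond the window the next site was 516 kb from the gene in PC-3 cells and between 943 and 1893 kb in the other lines.

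**Figure D2:**
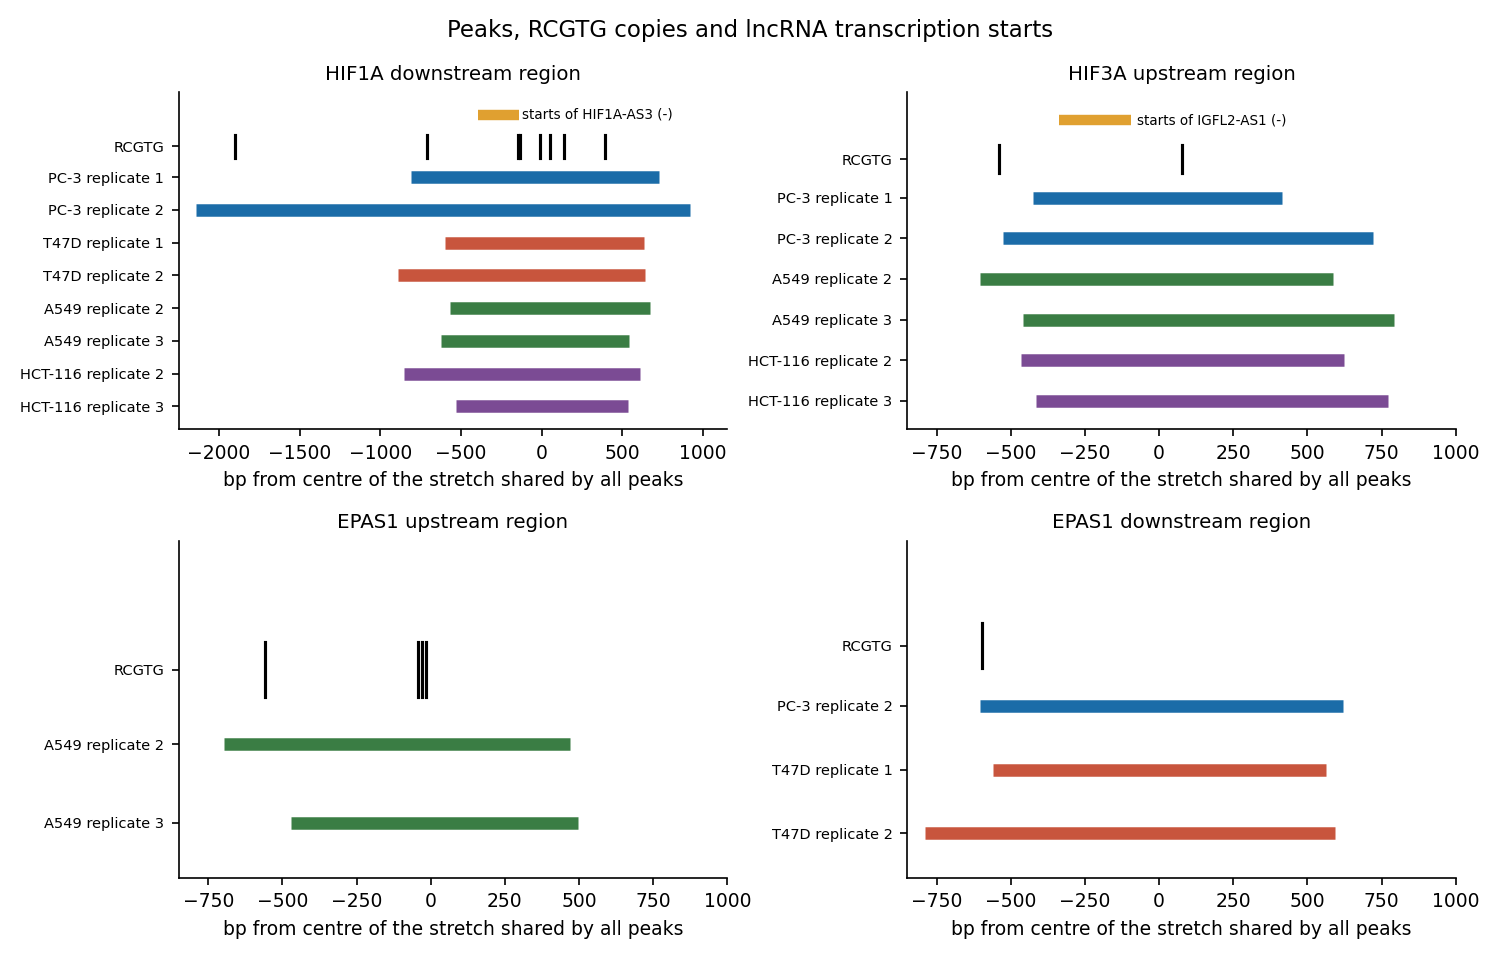
Peaks (bars), copies of RCGTG (black ticks) and the span of the starts of the lncRNAs HIF1A-AS3 and IGFL2-AS1 (yellow) in 4 regions, against the distance in bp from the centre of the stretch shared by all peaks of the region. At HIF1A the 8 peaks overlap around a group of copies beside the starts of HIF1A-AS3. Copies lie near the centre in the EPAS1 upstream region but only at the edge of the EPAS1 downstream region.

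EPAS1, which encodes the α subunit of HIF-2, had a region on each side of the gene. The upstream region at chr2:46459527-46460718, 60088 bp before the gene, had peaks in A549 cells only. They scored 231 (rank 351 of 1768, 19.8% of peaks higher) in replicate 2 and 127 (rank 462 of 1270, 36.3% higher) in replicate 3, and shared 942 bp. EPAS1 is the coding gene with the nearest start, and no annotated gene overlaps the region. It held 4 copies of RCGTG, 3 of them within 44.5 bp of the centre of the shared stretch, as the printed sequence shows.

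The downstream region at chr2:46635585-46636993, 21749 bp past the end of EPAS1 and 114779 bp from its start, was a site in T47D cells. Its scores were 59.7 in replicate 1 and 61.1 in replicate 2, ranks 2409 of 3061 and 2265 of 2910. PC-3 replicate 2 had a peak here as well (68.3, rank 1983 of 2891) that PC-3 replicate 1 lacked. Between 68.6% and 78.7% of peaks scored higher in these 3 libraries, so the peaks were weak in each. The region lay nearer to the start of TMEM247 (69711 bp) than to that of EPAS1. Its 1 copy of RCGTG was 597.5 bp from the centre of the shared stretch and outside it. No difference between lines beyond replicates was detected at this region (exact permutation test, one-sided, p = 0.429, adjusted p = 0.429). Most libraries had no peak here, so many pairings tied, and the test could not decide whether lines differ. Leaving out PC-3 replicate 1, the PC-3 library without the peak, gave an adjusted p of 0.0429 in the same test. That setting removes the disagreement between the PC-3 replicates. In the main test 1 region per gene was used, that with a site in most lines and then with peaks in most libraries. The upstream region took its place when PC-3 replicate 2 or either T47D replicate was left out, or when the higher-scoring 50% of each list was used. It then had an adjusted p between 0.143 and 0.152 (exact permutation test). Only A549 libraries had a peak there, so every pairing that joined them tied. The unadjusted p of this test could therefore not fall below 0.143, and the test could not show a difference between lines. By percentile over the 8 libraries, the downstream region was most like regions nearest to TET1, GSTM3 and ENC1, with mean differences of 1.96, 2.54 and 2.70 points.

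PC-3 and HCT-116 cells had no site in the EPAS1 window. The first beyond it in PC-3 cells, which A549 cells shared, was at chr2:46300273-46301563, 219 kb before EPAS1. It was chosen after its values were seen and is not counted with the members. Of its peaks, those of PC-3 cells scored 154 (rank 277 of 1042) and 308 (rank 313 of 2891), and those of A549 cells 151 (rank 546 of 1768) and 117 (rank 512 of 1270). It lies within PRKCE, a protein kinase C gene, over the starts of 2 of its shorter transcripts and 421789 bp from the start of that gene, and it held 5 copies of RCGTG. By gene start, the nearest coding gene was EPAS1. In HCT-116 cells the nearest site was 329 kb from EPAS1. The study mapped chromatin contacts of the EPAS1 locus in a renal cancer line that is not among the 4 lines here. It reported a long-range contact of that locus with a HIF-binding site. The 11 oligonucleotides designed to capture the locus matched GRCh37 between chr2:46525830-46559768, inside the gene. The upstream and downstream regions lay 65.1 and 75.8 kb from the nearest of them. Contacts of these regions in the 4 lines were not tested.

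HIF3A encodes the α subunit with several splice forms, some of which restrain the other HIF proteins. Its region lay far upstream, at chr19:46705911-46707309, 92990 bp before the gene and close to the limit of the window. A549 cells had the highest ranks there, 101 of 1768 (score 609) in replicate 2 and 92 of 1270 (451) in replicate 3. HCT-116 cells followed with 436 of 3790 (324) and 399 of 1913 (203). PC-3 cells ranked it lower, 510 of 1042 (93.9) in replicate 1 and 763 of 2891 (148) in replicate 2, and T47D cells had no peak in either replicate. The nearest peak of T47D cells was 413 kb from HIF3A and appeared in 1 replicate.

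In percentiles, A549 cells had 94.3 and 92.8, HCT-116 cells 88.5 and 79.2, PC-3 cells 51.2 and 73.6, and T47D cells 0 in both, 0 standing for no peak. The replicates of the 4 lines did not overlap in this order. The mean difference between replicates was 8.33 points, against a median of 50.1 over all pairings, and no other pairing gave as small a difference (p = 0.0095 in the one-sided exact permutation test, which can give no smaller p, adjusted p = 0.0286). Without a replicate of A549 or of HCT-116 cells, the adjusted p lay between 0.0571 and 0.143. Without a replicate of PC-3 or T47D cells it lay between 0.0286 and 0.0429 in the same test. These p-values measure only the spread between the libraries of a line, which may be technical. The peaks shared 842 bp in PC-3, 1046 bp in A549 and 1038 bp in HCT-116 cells. The regions most like it over the 8 libraries were nearest to ANO6, NR3C1 (188793 bp away) and APOH, with mean differences of 3.64, 5.34 and 5.66 points.

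**Figure D3:**
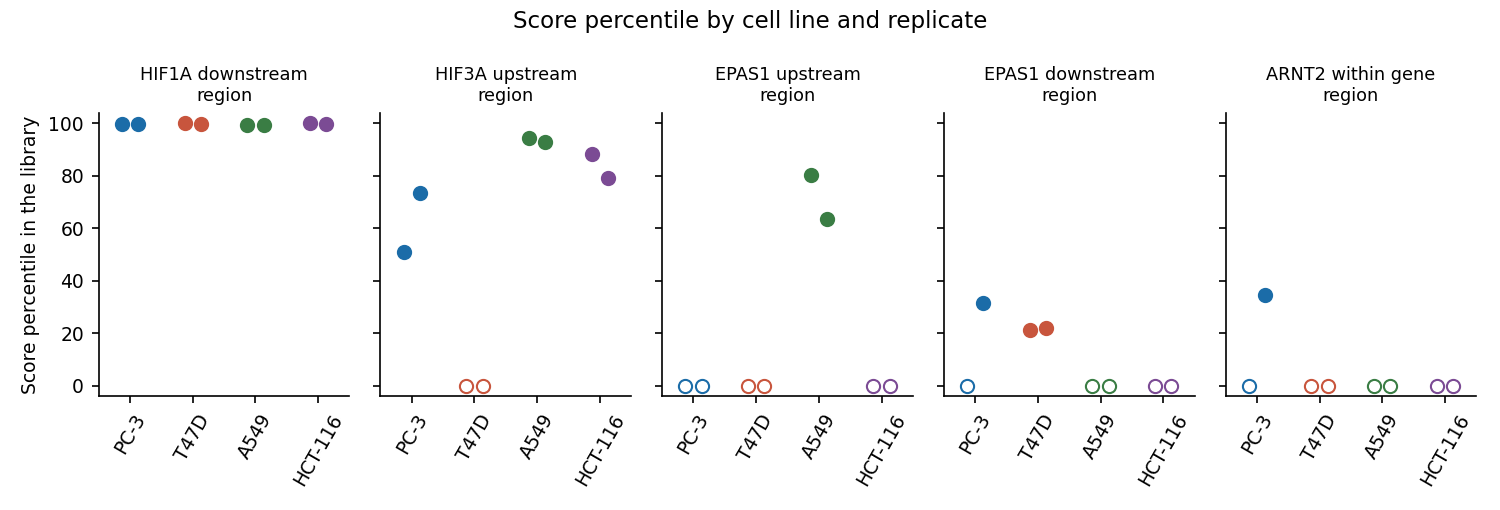
Percentile of the score in its library (y axis, 0 to 100) for the 5 regions, by line, with 1 point per replicate. Open points at 0 stand for no peak. The HIF1A region lies above 99 in all 8 libraries, the HIF3A region is high in A549 and HCT-116 cells and absent in T47D cells, and the EPAS1 and ARNT2 regions are seen in few libraries.

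HIF3A was not among the 3 coding genes with the nearest starts to this region, which were IGFL1 (25690 bp), IGFL2 (59548 bp) and IGFL3 (77966 bp), of the IGF-like family. As at HIF1A, the region covered the starts of a lncRNA on the − strand, here all 14 transcripts of IGFL2-AS1, and that of 1 transcript of ENSG00000268460 on the + strand. It held 2 copies of RCGTG, 1 of them in the stretch shared by the 6 peaks. Whether HIF3A or a nearer gene responds was not tested.

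ARNT, the gene of the precipitated subunit, had no peak in any library within 100 kb. The nearest peak of any library was 321 kb away, in T47D replicate 1. Sites were further, at 404147 bp in T47D and 404585 bp in HCT-116 cells, both at the start of ZNF687, at 527 kb in PC-3 cells, at the start of CIART, and at 1116 kb in A549 cells. ARNT2 had 1 peak within the gene, in PC-3 replicate 2 alone, at chr15:80872283-80873206 and 176 kb from the start. It scored 70.6 and ranked 1895 of 2891, and 65.5% of the peaks of that library scored higher. PC-3 replicate 1, with fewer peaks, did not have it, so it was no site. It overlapped 139 bp of coding exon of ARNT2 and the start of an antisense lncRNA (ENSG00000270919), and held 3 copies of RCGTG. The nearest sites to ARNT2 were 204 kb away in PC-3, 207 kb in T47D and 507 kb in HCT-116 cells, and 4565 kb in A549 cells.

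**Figure D4:**
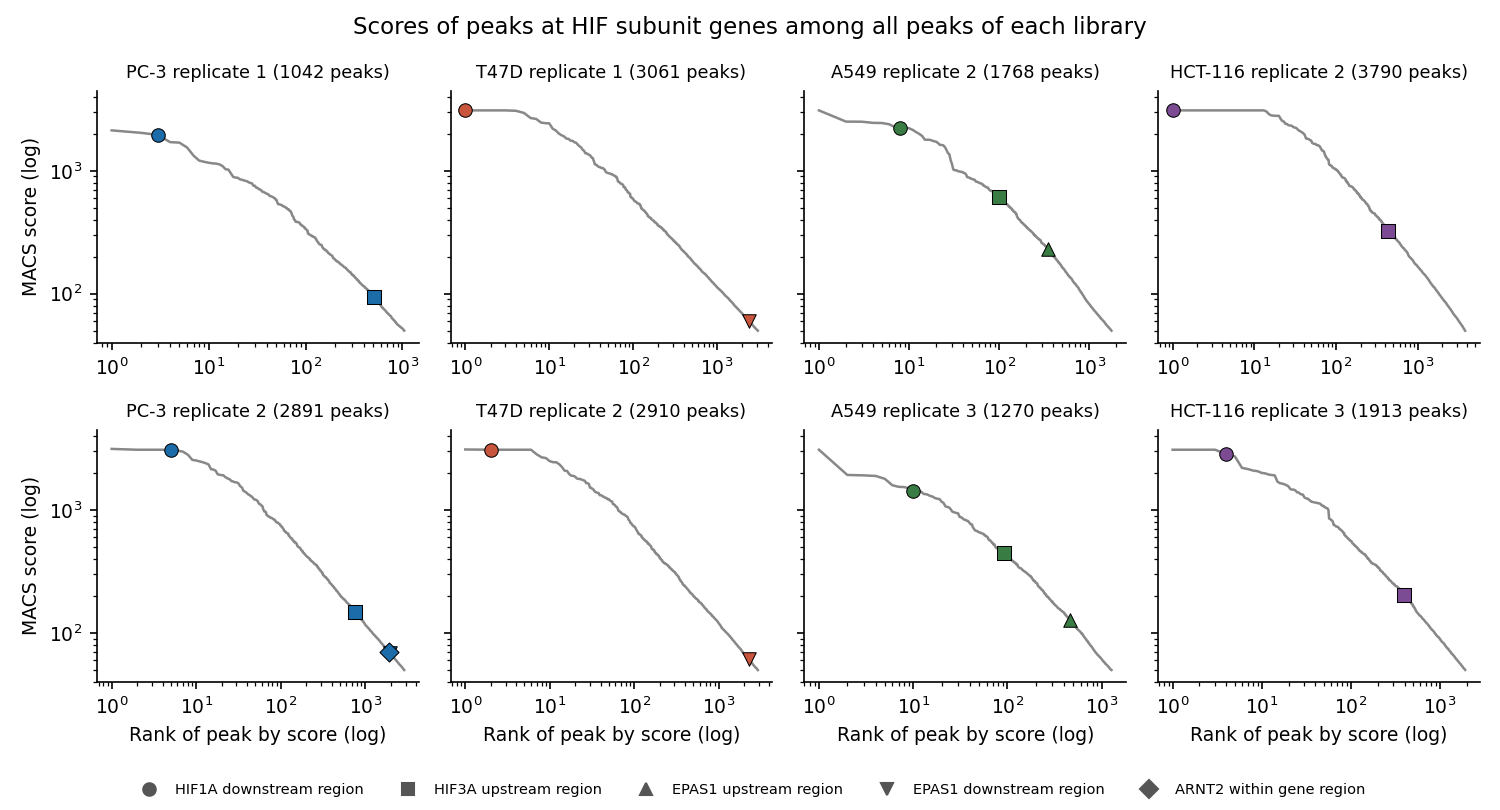
MACS score (y axis, log) against rank (x axis, log) of every peak in each library (grey line), with the peaks of the member regions as symbols. Circles, the HIF1A region, have at most 9 higher-scoring peaks in each of the 8 libraries, while the EPAS1 downstream and ARNT2 peaks lie near the lower end.

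Across members, 18 of the 20 peaks overlapped a peak of the other replicate of the line. The 2 that did not were those of PC-3 replicate 2 at EPAS1 and ARNT2, and in that library 33.6% of all peaks were found in the other replicate. Among all libraries this share lay between 33.6% and 93.1%. All 4 member regions that were sites held RCGTG, as did 96.3 to 99.0% of all sites, depending on the line, and 73.3 to 81.1% of equally long stretches 5 kb to either side. None of the 5 regions covered the start of a coding transcript, which 42.9% of all 8362 regions did. The start of a lncRNA was covered without a coding start by 3 of the 5, against 5.26% of all regions and 7.73% of the 233 regions with a peak in all 8 libraries.

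The genes that control HIF by oxygen and the remaining genes of the subunits' own family were counted in the same way, in a narrower window. Within 25 kb of the gene body, where 24.4% of all genes had a site in at least 1 line and 2.46% in all 4, 9 of 16 genes of oxygen-dependent control had one in at least 1 line and 2 in all 4. In the same distance 2 of the 5 HIF subunit genes had a site, HIF1A in all 4 lines and EPAS1 in T47D cells. The 2 control genes bound in all 4 lines were prolyl hydroxylases that mark the α subunits. EGLN1 had a site at its start with a mean percentile of 77.9, and EGLN3 had 5 regions, the highest at 98.9, which was inside the gene as annotated and 523359 bp from the start of its longest transcript. The 5 regions were counted over that full extent. Distances to the starts of shorter EGLN3 transcripts were not measured, so this site may lie much nearer to one of them. SIAH2, a ubiquitin ligase that acts on the hydroxylases, had a site at its start in PC-3, T47D and HCT-116 cells. CITED2, which competes with HIF-α for the coactivator p300, had one at its start in T47D, A549 and HCT-116 cells. RBX1 and ELOB, components of VHL-type ubiquitin ligases, had sites in T47D and HCT-116 cells, CUL2, their scaffold, in T47D cells, HIF1AN, the asparaginyl hydroxylase of HIF-α, in HCT-116 cells, and SIAH1, a relative of SIAH2, in A549 cells. Among the 7 control genes with none, and named after their values were seen, were EGLN2, the remaining hydroxylase of that family, and VHL, which recognises hydroxylated HIF-α and whose nearest sites were 25553 bp away in T47D and 25529 bp in HCT-116 cells. A site within 2 kb of the start was found in 6 of the 16 control genes and in 0 of the 5 subunit genes, against 9.15% of all genes. Of 11 other genes of the bHLH-PAS family, to which the subunits belong, 2 had a site within 25 kb: AHRR, the repressor of the aryl hydrocarbon receptor, in HCT-116 cells, and NPAS2, a partner of BMAL1 in the circadian clock, in PC-3 and A549 cells.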

How the data were processed

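HIF-1β ChIP-seq peaks of 8 libraries were analysed. The submitters' processing notes name Trim Galore 0.3.3, BWA 0.7.5a-r405, SAMtools 0.1.19, Picard 1.106, bedtools 2.17.0 and MACS, and the methods of the study add T-PIC as another caller. Whether the lists hold all MACS peaks or those that T-PIC also called cannot be seen in them, and every rank and percentile is relative to the peaks listed. The authors called peaks on GRCh37 for each library and deposited a MACS score per peak, which no header defines. No reads were used, so depth and its effect on the number of peaks are unknown.

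Positions were compared with GENCODE release 44 lifted to GRCh37, in which the start of a gene is that of its longest extent. RCGTG was counted on both strands of the genome sequence. The sequence of the HIF3A upstream region is not reported here. The named regions are those in the members' windows and, for each member with peaks of at least 2 libraries in its leading region, the 3 regions whose percentiles over the 8 libraries were most like it. The region in PRKCE was named outside that rule. Lines were compared for the 3 members with at least 2 peaks in 1 region by exact permutation tests with Benjamini-Hochberg adjustment. The members and lists were chosen with earlier results of these data known. Scripts (Python 3.11.15, NumPy 2.4.6, pysam 0.24.0, Matplotlib 3.10.9, samtools 1.23.1) were tested on simulated data. Alternatives were a larger overlap, a peak of either replicate, the higher-scoring 50% of each list, narrower windows, the central 200 bp of regions, other scalings of the score, the highest peak anywhere in the window and each library left out.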

Additional observations from a re-analysis of the deposited data

How the results depend on the processing

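Of 170 values recomputed under alternatives, 146 were classed as unchanged. For a count this meant a value equal to the main one or within a fixed ratio of it. Thus 4 and 5 regions holding RCGTG were classed alike. For a test between lines it meant the same direction and side of the threshold. No test between lines reversed, and counts have no direction to reverse. With windows of 25 kb, and likewise of 50 kb, PC-3, A549 and HCT-116 cells each had 1 member with a site, EPAS1 had 1 region, HIF3A had 0, and 2 regions held RCGTG, since the windows are smaller. With a peak of either replicate, PC-3 cells had 4 members and ARNT2 had 1 region. With the higher-scoring 50% of each list, T47D cells had 1 member and EPAS1 1 region. In the central 200 bp, 2 of 4 regions held RCGTG; the HIF1A region lost it because the wide peak of PC-3 replicate 2 shifts its centre.

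With 1 library left out, members with a site ranged from 2 to 4 in PC-3 cells (4 without PC-3 replicate 1) and stayed at 2 in T47D, 3 in A549 and 2 in HCT-116 cells. Regions of ARNT2 ranged from 0 to 1, and regions holding RCGTG from 4 to 5. Adjusted exact permutation p-values between lines ranged from 0.0857 to 0.171 for HIF1A, from 0.0429 to 0.429 for EPAS1 and from 0.0286 to 0.143 for HIF3A. The EPAS1 values are of the downstream region, except for 0.143 to 0.152 of the upstream region without PC-3 replicate 2 or a T47D replicate. In each EPAS1 region most libraries had no peak, so many pairings tied and these values do not settle whether lines differ there. No paired analysis was possible because the 4 lines compared share only the replicate number 2, the test already compares replicates within a line, and the lists hold no reads. Unknown depth limits every absent peak, which was not detected at this depth.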
